A study of Mus musculus with 11 samples.

Results

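The data were the small intestine RNA-seq libraries of mice whose skin was treated with imiquimod (IMQ) or with vehicle cream. They comprised 5 of the 11 libraries of the study, 3 from control mice (control 7, 8 and 9) and 2 from IMQ-treated mice (IMQ 10 and 11). The genes compared were those with a read count of at least 1 in each of the 5 libraries, which held for 19965 of the 45777 genes in the table. All mice were BALB/c, were 8 to 10 weeks old when treatment began, and had shaved skin. Each received 62.5 mg of cream a day, either Aldara cream with 5% IMQ or Vaseline as the vehicle. The sample labels place the cream on the back and the right ear for 5 to 8 days, whereas the methods of the study name the back alone and 5 to 7 days; neither gives the days of a single mouse. The mice were bought as females or males. In all 5 libraries *Xist*, which is transcribed from the inactive X chromosome of females, had 20723 to 51897 counts and the Y-linked *Ddx3y* had 0. The remaining 6 libraries were skin from control and IMQ-treated mice, and enter below only where the effect of IMQ was compared between the tissues.

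IMQ is a ligand of Toll-like receptor 7 (TLR7), an endosomal sensor of single-stranded RNA in macrophages, monocytes and dendritic cells, and repeated application to skin is a widely used model of psoriasis. The small intestine is lined by a single layer of epithelial cells renewed from crypts, and its lamina propria is rich in resident macrophages, dendritic cells, eosinophils, T cells and IgA-secreting plasma cells. Phagocytes of the gut wall take up dying cells and microbes through Fc, complement and C-type lectin receptors. Many of these receptors carry no signalling tail of their own and rely on adaptors such as FcRγ and DAP12, whose phosphorylated motifs recruit the kinase SYK. Others carry inhibitory motifs that bind phosphatases. The comparison asked which genes of this tissue differed after cream was applied to the skin. The study also measured IMQ itself in serum and intestine after the topical treatment. Because the control cream was Vaseline and not the base of Aldara, effects of IMQ and of its cream base cannot be told apart.

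The libraries held 48035631 to 58526384 counts in genes, so that depth differed little between the groups. Mitochondrial genes took 5.86% to 8.45% of the counts. Pairs of replicates correlated across genes at 0.983 to 0.988 on the log2 scale, and every pair differed by more than counting noise. Values below are normalized counts, the deposited counts scaled to the library by relative log expression. The fold changes are on the log2 scale, IMQ over control, with their standard errors (SE). Adjusted p was taken from the quasi-likelihood test of edgeR, corrected by Benjamini-Hochberg across the 19965 genes, and a gene called higher or lower had an adjusted p under 0.05. With 2 libraries against 3, and no statement in the labels that each came from a separate mouse, these p-values describe only the spread between these libraries. In whole tissue, fewer cells of a type and less RNA per cell cannot be told apart.

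Of the genes tested, 2.77% were called higher in IMQ (554) and 0.17% lower (34), and the share called in either direction was 2.95%. The median log2 fold change was 1.73 for the genes called higher and -1.48 for those called lower, against -0.02 over all genes tested. At least a 2-fold change was reached by 463 of the higher and 21 of the lower genes, and at least an 8-fold change by 74 and 3. Protein-coding genes made up 512 of the higher and 30 of the lower genes. All 588 had non-overlapping groups; among all genes tested, both IMQ libraries lay above all 3 controls for 15.1% and below them for 13.9%. Of the 554 higher genes, 381 had the larger value in IMQ 10. The count depended on each single library, from 294 genes without IMQ 10 and 334 without IMQ 11 to 801 without control 7.

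**Figure D1:**
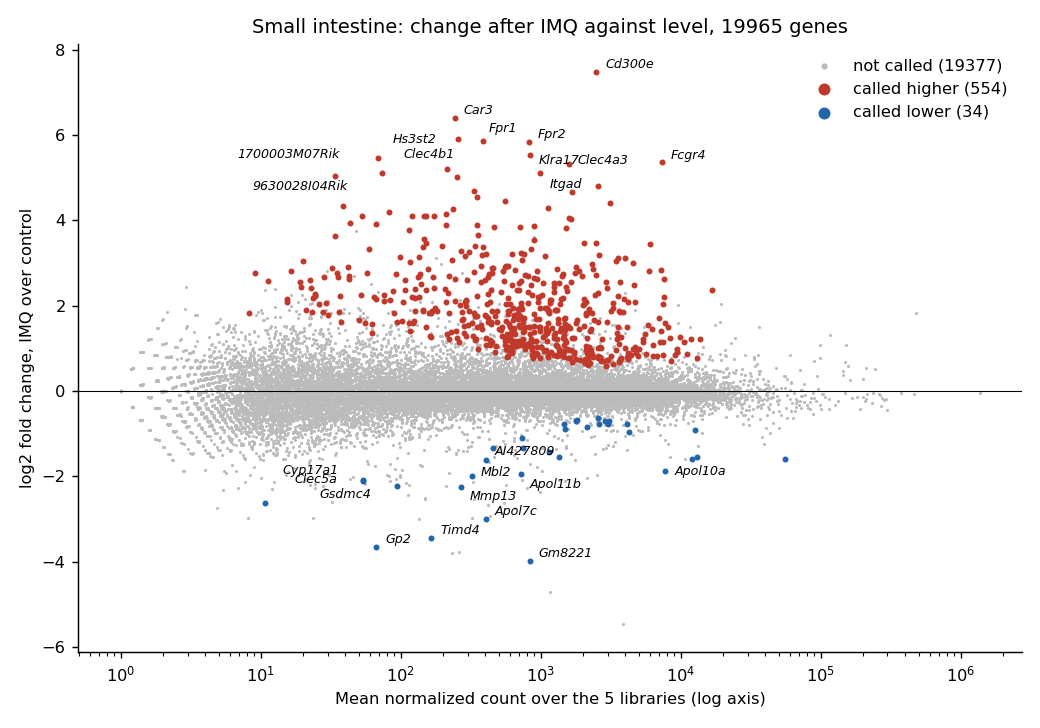
Each point is 1 of the 19965 genes tested, with its mean normalized count on a log10 axis and its log2 fold change (IMQ over control) in small intestine. The 554 genes called higher reach further from 0 than the 34 called lower, and the genes with the largest changes carry their symbols.

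Many of the largest rises were in receptors of myeloid cells. *Cd300e* (Gene ID 217306, chr11:115051917-115066676), an activating receptor of monocytes that signals through DAP12, stood at 36.9, 36.3 and 30.5 normalized counts in controls 7, 8 and 9 and at 6310 and 6056 in IMQ 10 and 11. This was 179-fold, a log2 fold change of 7.48 (SE 0.15, adjusted p = 4.82e-06), the largest among the genes tested with a mean of at least 50. *Fcgr4* (Gene ID 246256, chr1:171018926-171029761), the activating Fc receptor for IgG2 antibodies, had 507, 331 and 454 normalized counts in the controls against 19784 and 15524 in IMQ. Its log2 fold change was 5.36 (SE 0.23, adjusted p = 1.37e-04), or 41.0-fold. The lowest IMQ library was far above the highest control for both genes.

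*Clec4a3* (chr6:122952515-122969878) and *Clec4b1* (chr6:123049962-123071555), neighbouring C-type lectin genes, behaved alike. *Clec4a3* had 92.2, 85.7 and 110 normalized counts in the controls and 4218 and 3435 in IMQ, a log2 fold change of 5.31 (SE 0.18, adjusted p = 7.26e-05). *Clec4b1* had 18.4, 15.1 and 8.31 in the controls and 510 and 511 in IMQ, a log2 fold change of 5.20 (SE 0.33, adjusted p = 4.00e-04). *Itgad* (chr7:128173933-128205504) encodes the CD11d chain of a β2 integrin. It had 86.8, 57.5 and 64.6 normalized counts in the controls and 2708 and 2055 in IMQ, with a log2 fold change of 5.10 (SE 0.23, adjusted p = 1.53e-04). *Klra17*, a member of the Ly49 lectin-like receptor family, had 58.6, 32.3 and 40.6 against 2591 and 1450, a log2 fold change of 5.53 (SE 0.34, adjusted p = 3.79e-04). How reads shared by near-identical family members were counted is not stated, so that values of single *Clec4a*, *Clec4b* and *Klra* genes are uncertain.

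The 12 largest rises also included genes of other functions. *Car3* (chr3:14863538-14872381), the carbonic anhydrase abundant in fat and muscle, had 4.34, 7.06 and 9.24 normalized counts in the controls and 742 and 450 in IMQ, with a log2 fold change of 6.39 (SE 0.38, adjusted p = 3.62e-04). The adipocyte gene *Cidec* had 2344, 1013 and 3533 in the controls and 4090 and 5311 in IMQ, a difference that was not called (1.03, adjusted p = 0.404), and adipocyte markers summed to 45.9, 32.5 and 47.3 FPKM (fragments scaled to gene length and library size) in the controls and to 78.6 and 74.1 in IMQ. Of 7 listed adipocyte markers only 2 could be tested. In these 2 both IMQ libraries lay above all controls, which held for 15.1% of all genes tested. None of the adipocyte and smooth muscle markers tested was called, and the part of these tissues in the *Car3* result was not tested. *Hs3st2* (chr7:121391585-121501768), which adds sulfate to heparan sulfate chains, had 5.42, 12.1 and 12.9 in the controls and 617 and 624 in IMQ, a log2 fold change of 5.90 (SE 0.34, adjusted p = 3.05e-04). The non-coding genes *1700003M07Rik* and *9630028I04Rik* (log2 fold changes of 5.46 and 5.10) and the formyl peptide receptor genes *Fpr1* and *Fpr2* (5.85 and 5.84) completed the 12. Each of the 12 was called in all 5 fits that left out 1 library.

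**Figure D2:**
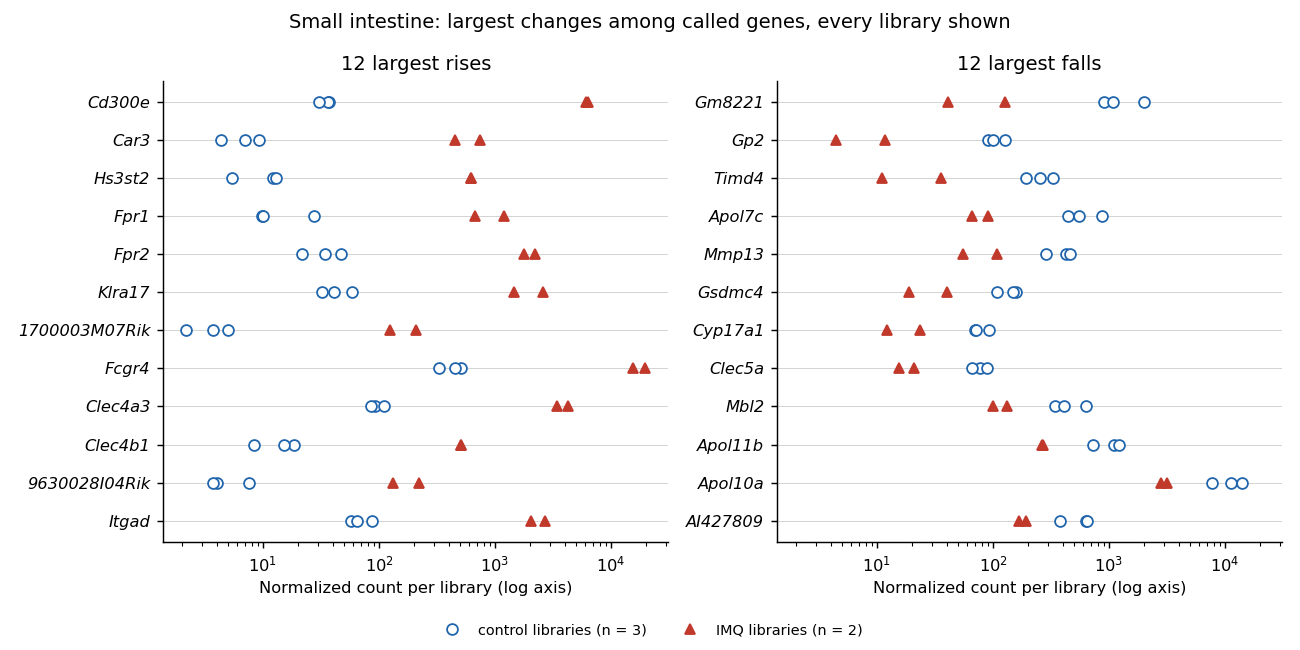
Normalized counts in each of the 5 libraries, on a log10 axis, for the 24 named genes with the largest changes, 12 in each direction, with open circles for the controls and triangles for IMQ. The 24 genes were chosen among those whose groups do not overlap; *Cd300e* lies between 30.5 and 36.9 in the controls and between 6056 and 6310 in IMQ.

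The falls were smaller, and 4 of the 12 largest lay in the apolipoprotein L (APOL) gene cluster on chromosome 15. APOL proteins are lipid-binding proteins, several of them induced by interferons. The pseudogene *Gm8221* (Gene ID 666661, chr15:77618968-77627398) had 2007, 905 and 1085 normalized counts in the controls and 126 and 41.0 in IMQ. Its log2 fold change was -3.97 (SE 0.57, adjusted p = 0.0115). *Apol7c* (chr15:77524852-77533335) had 866, 445 and 555 against 90.8 and 65.4, a log2 fold change of -2.99 (SE 0.36, adjusted p = 0.00506), which was not called without IMQ 11 (-2.78, adjusted p = 0.0555). *Apol11b* (chr15:77633951-77643286) had 732, 1105 and 1222 against 266 and 268, a log2 fold change of -1.93 (SE 0.25, adjusted p = 0.00728). *Apol10a* (chr15:77476953-77491069), the most abundant of the called *Apol* genes, had 7645, 11350 and 13891 against 2791 and 3166, a log2 fold change of -1.88 (SE 0.26, adjusted p = 0.00988). Control 7 was the highest control for *Gm8221* and *Apol7c* and the lowest for *Apol10a* and *Apol11b*, and in all 4 genes every control was above both IMQ libraries. Without IMQ 10 or IMQ 11 the adjusted p was 0.0838 or 0.0703 for *Apol11b* and 0.117 or 0.0803 for *Apol10a*.

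Not all of the cluster was lower. Of its 13 members tested, a list drawn up after these values were seen, 4 were called lower and 0 higher, the median log2 fold change was -0.53, and 7 had both IMQ libraries below all controls, against 0.17% called lower and 13.9% below all controls over all genes tested. *Apol7a*, the next most abundant, overlapped between the groups at 7484, 4862 and 8733 in the controls and 5501 and 7681 in IMQ (log2 fold change -0.09, adjusted p = 0.943). The interferon-inducible *Apol9a* and *Apol9b* stood at 0.53 and 0.34 on the log2 scale and were not called (adjusted p = 0.569 and 0.772). Because the members are close paralogs, reads may have been assigned to more than one of them or to the wrong one.

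Outside the cluster, *Gp2* (chr7:119442537-119459272), a glycoprotein of pancreatic zymogen granules and of the M cells that sample microbes over Peyer's patches, fell most. It had 127, 89.7 and 99.7 normalized counts in the controls and 11.8 and 4.44 in IMQ, a log2 fold change of -3.64 (SE 0.47, adjusted p = 0.00711). Of 8 listed pancreatic acinar markers 3 could be tested, and none was called. Their log2 fold change was positive for 2 and negative for 1, with a median of 0.11. The most abundant, *Clps*, had 3498, 3153 and 2747 against 2601 and 2381 (-0.33, adjusted p = 0.415). The FPKM of the list summed to 109, 105 and 83.3 in the controls and to 83.1 and 70.1 in IMQ. The part of pancreatic tissue in the *Gp2* result was not tested. *Timd4* (chr11:46810786-46844333), the phosphatidylserine receptor of long-lived resident macrophages, had 331, 193 and 254 in the controls and 35.4 and 11.1 in IMQ, a log2 fold change of -3.44 (SE 0.52, adjusted p = 0.0142). Without control 9 its adjusted p was 0.0556. The fitted levels were 12.5-fold (*Gp2*) and 10.9-fold (*Timd4*) lower in IMQ, and the groups did not overlap.

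The other 6 of the 12 were *Mmp13* (collagenase 3), *Gsdmc4* (a gasdermin), *Cyp17a1* (a steroidogenic enzyme), *Clec5a* (a DAP12-coupled lectin), *Mbl2* (mannose-binding lectin) and the long non-coding gene *AI427809*, with log2 fold changes from -2.24 to -1.61. *Mbl2*, a soluble activator of complement, had 341, 406 and 637 normalized counts in the controls and 132 and 99.8 in IMQ (-1.99, SE 0.33, adjusted p = 0.0239). *Clec5a* had 77.0, 66.5 and 88.7 against 20.9 and 15.5 (-2.07, SE 0.34, adjusted p = 0.0224). In both the IMQ values lay below every control, but each of these 6 lost its call in 2 to 4 of the 5 fits with 1 library left out: *Mmp13* without control 9 or IMQ 11 (adjusted p = 0.0877 and 0.116), *Clec5a* and *Mbl2* without control 9, IMQ 10 or IMQ 11 (0.0883, 0.116 and 0.18 for *Clec5a*, 0.0531, 0.118 and 0.179 for *Mbl2*), *AI427809* without control 8, IMQ 10 or IMQ 11 (0.087, 0.167 and 0.208), and *Gsdmc4* and *Cyp17a1* when any library except control 7 was left out (0.0591 to 0.179 and 0.0872 to 0.227). *Gm8221* and *Gp2* were called in all 5.

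Promoter sequences were read to show what the genes of each direction share at their start sites. RefSeq sequences (build GRCm38.p6, 250 bases before to 50 after the start) matched 440 of the 554 higher genes, 22 of the 34 lower genes and 13718 of all genes tested. A PU.1-type element, GAGGAAGT on either strand, was found in 63 of the 440 higher genes (14.3%) and in 0 of the 22 lower ones, against 3.16% of the genes tested and 3.28% of all 27025 promoters. Close paralogs entered the 63 as separate genes, some with the match at the same place. Among these were *Pirb* and *Pira1* (120 bases before the start) and *Cd300ld3*, *Cd300ld4* and *Cd300ld5* (187 bases before it). PU.1, encoded by *Spi1*, is the transcription factor that defines the myeloid lineage. The stretches below are the 120 bases before the start of 3 higher genes and bases -250 to -131 of *C1qc*, 5′ to 3′ on the strand of the gene; capitals mark the element, which reads ACTTCCTC where it lies on the opposite strand. They come from an Fc receptor (*Fcgr4*, chr1:171018806-171018925, plus strand), an inhibitory lectin-like receptor (*Cd72*, chr4:43454627-43454746, minus strand), the signalling exchange factor *Vav1* (chr17:57278980-57279099, plus strand) and a complement gene (*C1qc*, chr4:136893045-136893164, minus strand).
Fcgr4: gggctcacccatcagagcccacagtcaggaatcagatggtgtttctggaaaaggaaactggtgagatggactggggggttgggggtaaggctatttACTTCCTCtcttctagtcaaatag
Cd72: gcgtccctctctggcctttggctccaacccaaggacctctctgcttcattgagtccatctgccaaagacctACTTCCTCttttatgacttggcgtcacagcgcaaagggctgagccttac
Vav1: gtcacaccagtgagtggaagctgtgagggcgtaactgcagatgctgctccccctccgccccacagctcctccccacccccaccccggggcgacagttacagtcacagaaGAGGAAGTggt
C1qc: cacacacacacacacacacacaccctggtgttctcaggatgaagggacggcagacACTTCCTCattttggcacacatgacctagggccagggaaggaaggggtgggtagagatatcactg

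Those genes had the following levels. *Vav1* had 498, 491 and 525 normalized counts in the controls and 2269 and 2141 in IMQ, a log2 fold change of 2.13 (SE 0.13, adjusted p = 3.45e-04). *Cd72* had 340, 283 and 409 in the controls and 8303 and 6270 in IMQ, a log2 fold change of 4.40 (adjusted p = 1.53e-04). *Spi1* itself had 731, 407 and 502 against 3026 and 2866, a log2 fold change of 2.43 (adjusted p = 0.00176). *Cd72* and *Spi1* were picked after their values were seen. The shares of promoters are a description of letters at start sites; binding was not measured.

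A short interferon response-type element, GAAANNGAA on either strand, was in 52 of the 440 higher genes (11.8%) and in 6 of the 22 lower ones (27.3%), against 7.42% of the genes tested and 8.57% of all promoters. The 6 were *Apol7c*, *Apol10a*, *Apol11b*, *Timd4*, *Mmp13* and *AI427809*. The 3 *Apol* genes are close paralogs of the same cluster and entered as separate genes, so their matches are not independent. The 120 bases before the start of the 3 *Apol* genes are shown because the match lies at nearly the same distance from the start in each, beginning 54 and 48 bases before it in *Apol7c* (chr15:77533316-77533435, minus strand), 50 in *Apol10a* (chr15:77476927-77477046, plus strand) and 49 in *Apol11b* (chr15:77643287-77643406, minus strand). Capitals mark it, read as TTCNNTTTC. *Apol11b* had a further match 235 bases before the start, outside the bases shown. The C/EBP-type element TTGCNNCAA and the HNF4A-type element CAAAGTCCA were in 3.64% and 1.36% of the higher genes, against 1.77% and 0.51% of the genes tested.
Apol7c: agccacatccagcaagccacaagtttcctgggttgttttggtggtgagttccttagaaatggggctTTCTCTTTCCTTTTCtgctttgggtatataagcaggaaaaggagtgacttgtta
Apol10a: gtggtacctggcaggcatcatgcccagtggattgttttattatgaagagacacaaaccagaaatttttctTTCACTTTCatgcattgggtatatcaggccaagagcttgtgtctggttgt
Apol11b: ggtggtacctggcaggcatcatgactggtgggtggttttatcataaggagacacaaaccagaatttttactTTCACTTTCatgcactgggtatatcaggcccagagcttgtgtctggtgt

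Of the 49 gene lists, that of Fc receptor and ITAM signalling had the highest share of members called. The counts of called members here and below stand beside 2.77% of all genes tested called higher and 0.17% called lower. Of 16 tested, 15 were called higher and 0 lower, with a median log2 fold change of 1.93. *Fgr*, a SRC-family kinase that phosphorylates ITAMs, had 435, 347 and 425 normalized counts in the controls against 4922 and 3998 in IMQ, a log2 fold change of 3.47 (SE 0.16, adjusted p = 1.53e-04). *Syk*, the kinase that docks on them, had 1814, 1450 and 1610 against 9033 and 9141 (2.48, SE 0.14, adjusted p = 2.70e-04). Downstream, the adaptor gene *Lcp2* had a log2 fold change of 2.87 and the phospholipase gene *Plcg2* of 1.03. The phosphatase genes *Ptpn6* and *Inpp5d*, which restrain the same pathway, were also called higher, at 1.86 and 1.47. The 1 member not called was *Fcgr2b*, the inhibitory Fc receptor, at 317, 455 and 456 in the controls and 762 and 671 in IMQ, groups that do not overlap (0.81, adjusted p = 0.128). Activating *Fcgr1* and *Fcgr3* had log2 fold changes of 1.46 and 1.03. Summed over the list, FPKM was 106 to 140 in the controls and 678 and 836 in IMQ.

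Paired and C-type lectin receptors comprised 25 tested genes, of which 18 were called higher and 1 lower (*Clec5a*), with a median log2 fold change of 2.58. Inhibitory receptors and receptors that pair with activating adaptors were both among the calls. *Clec4a1*, a relative of the inhibitory lectin DCIR, had 190, 150 and 127 normalized counts in the controls against 4237 and 3621 in IMQ (4.66, SE 0.19, adjusted p = 1.37e-04). *Sirpa*, the inhibitory receptor for the CD47 signal on healthy cells, had 1367, 1261 and 1159 against 7641 and 7077 (2.54, SE 0.13, adjusted p = 1.82e-04). *Pirb*, also inhibitory, had a log2 fold change of 2.73 (adjusted p = 1.79e-04). Of the *Cd300* receptors that bind lipids on dying cells, *Cd300a*, *Cd300ld* and *Cd300lf* were called at 2.31, 2.67 and 2.72, and *Cd300lb* was not (0.51, adjusted p = 0.729). *Clec7a* (Dectin-1) had 512, 665 and 753 in the controls and 547 and 409 in IMQ (-0.43, adjusted p = 0.549), and *Clec4n* (Dectin-2) had 430, 232 and 333 against 139 and 102 (-1.46, adjusted p = 0.0762). *Cd300c*, *Clec4d*, *Clec4e* and *Trem2* had a count of 0 in some library and were not tested. The FPKM summed over the list was 46.8 to 54.9 in the controls and 262.5 and 340 in IMQ.

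**Figure D3:**
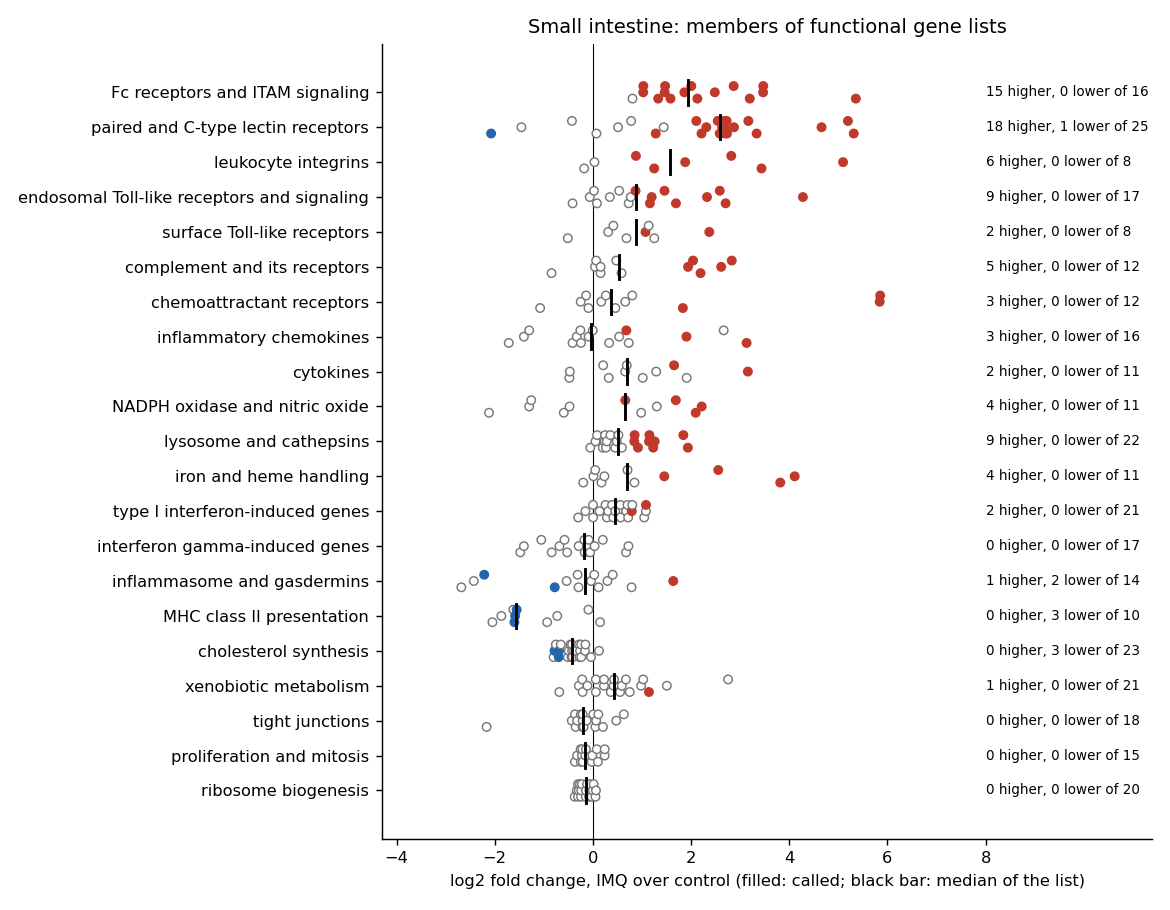
Log2 fold change (IMQ over control) of every tested member of the functional gene lists except that of immediate early and heat shock genes. There is 1 row per list and 1 point per gene, red for genes called higher, blue for lower and open for not called. A black bar marks the list's median. The Fc receptor and lectin lists have medians of 1.93 and 2.58, and the MHC class II list lies to the left of 0 with a median of -1.57.

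Of 17 tested genes of endosomal Toll-like receptors and their signalling, 9 were called higher and 0 lower, with a median log2 fold change of 0.87. *Unc93b1*, the chaperone that carries these receptors from the endoplasmic reticulum, had 4033, 3436 and 3523 normalized counts in the controls and 9633 and 10516 in IMQ (1.46, SE 0.13, adjusted p = 0.00139). *Slc15a3*, an endolysosomal peptide transporter, had a log2 fold change of 2.70, and *Irf5*, a transcription factor downstream of TLR7, of 1.69. *Irak3*, the inhibitory member of the kinase family that relays the signal, had 183, 211 and 208 against 912 and 1100 (2.32, SE 0.18, adjusted p = 6.66e-04). Its catalytic or relay relatives *Irak1*, *Irak2* and *Irak4* had log2 fold changes of 0.08, 0.02 and 0.35, none of them called. *Myd88*, the shared adaptor, rose by 0.87 (adjusted p = 0.00607). Among 8 surface receptor genes, 2 were called: *Cd180*, at 152, 135 and 206 against 1005 and 697 (2.37, adjusted p = 0.00303), and *Tlr1* (1.07, adjusted p = 0.0134), which was not called without control 8, IMQ 10 or IMQ 11 (adjusted p = 0.0521, 0.0659 and 0.126). *Tlr2*, *Tlr4* and *Tlr5* were not called (0.31, 1.14 and -0.51).

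Of 12 tested complement genes, 5 were called higher and 0 lower, with a median log2 fold change of 0.53. The 5 were the C1q chain genes *C1qa*, *C1qb* and *C1qc* (2.04, 2.83 and 2.61), the anaphylatoxin receptor gene *C3ar1* (1.94) and *Cfp*. *Cfp* encodes properdin, which stabilizes the alternative convertase, and had 415, 352 and 412 normalized counts in the controls and 1829 and 1767 in IMQ (2.19, SE 0.14, adjusted p = 4.17e-04). The abundant *Cfb* did not separate the groups, at 9271, 9293 and 8148 against 9131 and 9204 (0.04, adjusted p = 0.95). *C3* had a log2 fold change of 0.48 (adjusted p = 0.765). Of 8 tested leukocyte integrin genes, 6 were called higher, with a median of 1.56. *Itgam* (CD11b), which pairs with the β2 chain to form complement receptor 3, had 1606, 1487 and 1482 in the controls against 5528 and 5702 in IMQ (1.88, SE 0.11, adjusted p = 3.62e-04).

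Of 16 tested inflammatory chemokine genes, 3 were called higher and 0 lower, with a median log2 fold change of -0.04, against 2.77% of all genes called higher. *Ccl3*, an attractant of monocytes, had 23.9, 28.2 and 19.4 normalized counts in the controls and 128 and 292 in IMQ (3.13, SE 0.42, adjusted p = 0.00815), and was not called without control 9 (adjusted p = 0.0534). *Cxcl1*, a neutrophil attractant, was low, at 6.51, 13.1 and 10.2 against 34.5 and 41.0 (1.91, adjusted p = 0.0437), and lost its call in all 5 fits with 1 library left out (adjusted p = 0.0768 to 0.206). *Cxcl16* was the third (0.68, adjusted p = 0.0449), and *Ccl6*, the most abundant chemokine, had a log2 fold change of -0.33 (adjusted p = 0.468). Of 11 cytokine genes, 2 were called. *Il1b* had 338, 231 and 208 in the controls and 1344 and 3275 in IMQ (3.16, SE 0.38, adjusted p = 0.00519), and *Tgfb1* had 1258, 808 and 868 against 3145 and 3009 (1.65, SE 0.20, adjusted p = 0.0048). The IMQ libraries differed from each other by over 2-fold for *Il1b* and *Ccl3*, with IMQ 11 the higher, and lay close together for *Tgfb1*. Of 12 chemoattractant receptor genes 3 were called higher (median 0.36), *Fpr1* and *Fpr2* among them.

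Of 21 tested type I interferon-induced genes, 2 were called higher and 0 lower, with a median log2 fold change of 0.46; over all genes 2.77% were called higher. The log2 fold change was positive for 19 of the 21, and 12 had both IMQ libraries above all controls, against 15.1% of all genes tested. *Oas3*, which makes the activator of RNase L, had 2018, 2114 and 2028 normalized counts in the controls and 3487 and 3624 in IMQ (0.79, SE 0.11, adjusted p = 0.00968). *Isg15*, a ubiquitin-like modifier, had 994, 813 and 1248 against 1994 and 2316 (1.08, SE 0.19, adjusted p = 0.0295). Neither was called in every fit that left out a library: for *Oas3* the adjusted p was 0.0534, 0.0791 and 0.0976 without control 9, IMQ 10 and IMQ 11, and for *Isg15* it was 0.0586, 0.112 and 0.214 without control 8, IMQ 10 and IMQ 11. *Ifit1* had a log2 fold change of 0.80 (adjusted p = 0.0531). None of 17 tested interferon gamma-induced genes was called (median -0.17); *Irf1* was at 9335, 9634 and 12259 against 9366 and 9180 (-0.17, adjusted p = 0.788). DESeq2 called 7 type I interferon-induced genes higher, and a fit of all 11 libraries called 0.

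MHC class II genes went the other way. Of 10 tested, 3 were called lower and 0 higher, with a median log2 fold change of -1.57. In 7 of the 10, both IMQ libraries lay below all controls, which held for 13.9% of all genes tested. *Cd74*, the invariant chain that escorts class II molecules, had 58012, 69244 and 100647 normalized counts in the controls and 24232 and 25929 in IMQ (-1.60, SE 0.29, adjusted p = 0.0308). *H2-Eb1*, a β chain, had 12103, 14203 and 23267 against 5808 and 5214 (-1.58, SE 0.29, adjusted p = 0.0355). *H2-Ab1* had 12866, 15300 and 25483 against 5933 and 6254 (-1.55, SE 0.30, adjusted p = 0.0425). Its partner chain *H2-Aa* had 12540, 18316 and 32225 against 6685 and 4863, a larger difference with a wider spread (-1.86, SE 0.40, adjusted p = 0.0652). In all 4 genes control 9 was the highest and control 7 the lowest of the controls. The peptide editor *H2-DMb1* showed the same order (1609, 2614 and 4938 against 869 and 609; -2.05, adjusted p = 0.0756), and *H2-Oa*, *H2-Ob* and *H2-Eb2*, the 3 least abundant members, overlapped between the groups.

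The class II calls were sensitive to single libraries. *Cd74* was not called without control 8, IMQ 10 or IMQ 11 (adjusted p = 0.0632, 0.253 and 0.225), nor was *H2-Eb1* (0.0556, 0.207 and 0.256). DESeq2 called 7 of the 10 lower, the fit of all 11 libraries 5, and limma on log2(FPKM + 1) 0. Of the cells that carry class II, conventional dendritic cell markers had a median log2 fold change of 0.41 with 2 of 8 tested called higher, and B cell markers one of -1.03 with 0 of 11 called. Summed FPKM was 15.2, 13.3 and 13.7 against 28.1 and 19.8 for dendritic cells and 18.9, 13.9 and 30.4 against 22.4 and 20.5 for B cells. Tissue macrophage markers had a median of 1.09, with 8 of 18 tested called higher and 1 lower. Absorptive enterocyte markers had a median of 0.51, with 1 of 17 called higher and 0 lower. The B cell gene *Ms4a1* (CD20) was uneven among the controls, at 18.4, 48.4 and 359 against 52.7 and 16.6 in IMQ, control 9 being the highest as for the class II genes. The part of B cells or of any other cell type in the class II result was not tested. The promoters of *H2-Eb1* and *H2-Aa* carry the letters CTGATTGG, part of the Y box of class II promoters. These letters, searched after the values were seen, were in 2 of 22 lower genes (9.09%; *H2-Eb1* and the cholesterol synthesis gene *Idi1*), 3.41% of the higher genes and 5.51% of the genes tested. They stand in capitals in the 120 bases before the start of *H2-Eb1* (chr17:34305747-34305866, plus strand).
H2-Eb1: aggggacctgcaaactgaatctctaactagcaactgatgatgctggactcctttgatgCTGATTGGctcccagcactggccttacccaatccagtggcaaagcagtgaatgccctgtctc

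Degradative and oxidative functions of phagocytes were represented by 3 lists. Of 22 tested lysosome and cathepsin genes, 9 were called higher and 0 lower (median log2 fold change 0.50). The cysteine protease genes *Ctsh* and *Ctsl* had 1716, 1441 and 1484 (*Ctsh*) normalized counts against 6180 and 5649 (1.94, SE 0.13, adjusted p = 4.17e-04), and 1890, 1728 and 1786 (*Ctsl*) against 7206 and 5715 (1.84, SE 0.14, adjusted p = 6.39e-04). *Psap*, the most abundant of the list, was not called (0.28, adjusted p = 0.69). Of 11 genes of the NADPH oxidase and nitric oxide list, 4 were called higher (median 0.66). *Cybb*, the catalytic subunit of the oxidase, had 1754, 1719 and 2009 in the controls and 8481 and 7128 in IMQ (2.09, SE 0.14, adjusted p = 4.17e-04), its partner *Rac2* had a log2 fold change of 2.22, and the inducible nitric oxide synthase gene *Nos2* was not called (-2.12, adjusted p = 0.204).

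Of 11 iron and heme handling genes, 4 were called higher (median 0.70). *Hmox1*, which breaks down heme, had 130, 91.7 and 156 normalized counts in the controls and 929 and 552 in IMQ (2.55, adjusted p = 0.00519). *Spic*, the transcription factor of iron-recycling macrophages, had 3.25, 5.04 and 12 against 88.1 and 155 (4.11, adjusted p = 0.00682). *Hfe* had a log2 fold change of 1.45, and *Slc11a1*, the iron and manganese transporter of phagosomes, one of 3.82. The ferritin gene *Fth1* was not called (0.70, adjusted p = 0.534). Red blood cell markers summed to 67.3 to 174 FPKM in the controls and to 385 and 115 in IMQ, with 0 of 5 called; their part in the heme result was not tested.

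Of 14 inflammasome and gasdermin genes, 1 was called higher and 2 lower (median -0.17), against 2.77% and 0.17% of all genes tested. *Nlrp1b*, a sensor, had 73.8, 56.5 and 72.0 normalized counts in the controls and 233 and 186 in IMQ (1.64, adjusted p = 0.0212). *Casp4*, the caspase that detects cytosolic endotoxin, had 1757, 1921 and 1593 against 960 and 1090 (-0.78, adjusted p = 0.0342), and *Gsdmc4* was the second lower gene. *Gsdmc2* and *Gsdmc3*, its paralogs, were not called at -2.68 and -2.43 (adjusted p = 0.0837 and 0.138). *Nlrp1b* and *Casp4* kept no call when any library except control 7 was left out (adjusted p = 0.0739 to 0.159 for *Nlrp1b* and 0.066 to 0.268 for *Casp4*).

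Among the cell type markers, the lists of mononuclear phagocytes held most of the calls. Over all genes tested, 2.77% were called higher and 0.17% lower. Of 18 tested tissue macrophage markers, 8 were called higher and 1, *Timd4*, lower, with a median log2 fold change of 1.09. *Cd68*, a lysosomal protein of macrophages, had 581, 358 and 452 normalized counts in the controls and 2714 and 2684 in IMQ (2.54, SE 0.20, adjusted p = 7.94e-04). *Adgre1* (F4/80) had 1100, 676 and 794 against 3351 and 4306 (2.16, adjusted p = 0.00231). Several defining markers did not follow. *Csf1r*, the receptor for the growth factor of macrophages, had a log2 fold change of 0.38 (adjusted p = 0.605), *Mrc1* (CD206) of 0.05 (0.966), *Cd163* of 0.23 (0.845) and *Cx3cr1* of -0.14 (0.897). *Lyz2*, the most abundant marker, overlapped between the groups at 9158, 6771 and 8732 against 7725 and 9350 (0.05, adjusted p = 0.952). Summed FPKM of the list was 290 to 394 in the controls and 1035 and 955 in IMQ, a ratio of 2.97. *C1qc* alone gave 33.4 to 49.9 FPKM of these sums in the controls and 257 and 228 in IMQ. The sum therefore follows a few abundant genes and not each marker.

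Of 10 tested markers of Ly6C-low monocytes, the patrolling subset that expresses *Cd300e* and *Fcgr4*, 7 were called higher and 0 lower, with a median log2 fold change of 2.04. *Pou2f2*, a transcription factor, had 156, 230 and 270 normalized counts in the controls and 4228 and 3066 in IMQ (4.06, SE 0.25, adjusted p = 3.79e-04). *Treml4* had 206, 108 and 165 against 1237 and 1204 (2.93, adjusted p = 0.00138), and *Adgre4* had 194, 164 and 109 against 1196 and 1007 (2.82, adjusted p = 0.00147). *Ace*, also a marker of this subset, is abundant in enterocytes and was not called, at 85013, 98785 and 98388 against 107688 and 87250 (0.05, adjusted p = 0.969). Of 10 inflammatory monocyte markers 2 were called (median 0.52): *Ms4a6c*, at 905, 616 and 777 against 5089 and 4953 (2.71, adjusted p = 3.85e-04), and *Ms4a4c* (3.29, adjusted p = 0.00233).

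Granulocyte markers gave a mixed picture. Of 10 tested neutrophil markers, 2 were called higher and 1 lower, with a median log2 fold change of 0.05. *Csf3r*, the G-CSF receptor, which monocytes also carry, had 225, 168 and 134 normalized counts in the controls and 1644 and 1596 in IMQ (3.21, SE 0.23, adjusted p = 4.86e-04). *Mmp8* was higher at very low levels (4.34, 4.03 and 3.69 against 12.7 and 16.6; 1.83, adjusted p = 0.0425), a call lost in all 5 fits with 1 library left out (adjusted p = 0.0791 to 0.198). The lower gene was *Mmp9* (-1.34, adjusted p = 0.0261), not called without control 8, IMQ 10 or IMQ 11 (0.0806, 0.18 and 0.167). The defining markers *S100a8*, *Ly6g*, *Camp*, *Ngp*, *Elane*, *Mpo* and *Stfa2l1* had 0 to 11 counts in each library and were not tested, and *S100a9* was not called (2.24, adjusted p = 0.164). Of 6 tested eosinophil markers 1, *Ear2*, was called higher, at 42.3, 27.2 and 36.9 against 133 and 179 (2.13, adjusted p = 0.0136), a call lost without control 9 or IMQ 11 (0.0685 and 0.104). *Epx*, eosinophil peroxidase, had 24, 10 and 0 counts in the controls and 0 and 0 in IMQ, and *Siglecf* had a log2 fold change of -0.39. Eosinophil markers summed to 3.93 to 7.81 FPKM in the controls and to 7.51 and 7.54 in IMQ. *Ear2* alone gave 0.681 to 0.984 FPKM of these sums in the controls and 3.21 and 4.02 in IMQ. Of the 6 tested markers, 2 had a positive and 4 a negative log2 fold change.

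Lymphocyte and mast cell markers gave 1 call. None was called of 14 tested T cell, 11 B cell, 9 plasma cell and 9 mast cell markers, with median log2 fold changes of -0.44, -1.03, -0.11 and -0.74. *Cd8a* was at 1051, 733 and 1021 against 774 and 784 (-0.26, adjusted p = 0.692), and the J chain gene *Jchain* of plasma cells at 89516, 54426 and 56922 against 45836 and 40599 (-0.63, adjusted p = 0.426). The mast cell protease gene *Mcpt1* ran from 1273 in control 9 to 7382 in control 7, with 1351 and 1498 in IMQ. Among 8 natural killer and cytotoxic cell markers, *Klrb1c* (NK1.1) was called, at 9.76, 16.1 and 13.9 against 105 and 67.6 (2.69, adjusted p = 0.00933), but not without control 9 or IMQ 10 (0.0566 and 0.0683). *Gzma*, the most abundant, was not (-0.29, adjusted p = 0.822). Of 8 conventional dendritic cell markers, *Batf3* (3.07, adjusted p = 0.00151) and *Xcr1* (1.15, adjusted p = 0.0457) were called, the latter in none of the 5 fits with 1 library left out (0.0715 to 0.27). *Irf8*, needed for the same dendritic cell subset, was at 6012, 7440 and 9124 against 5719 and 5393 (-0.44, adjusted p = 0.42). None of 8 plasmacytoid dendritic cell markers was called (median -0.11).

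**Figure D4:**
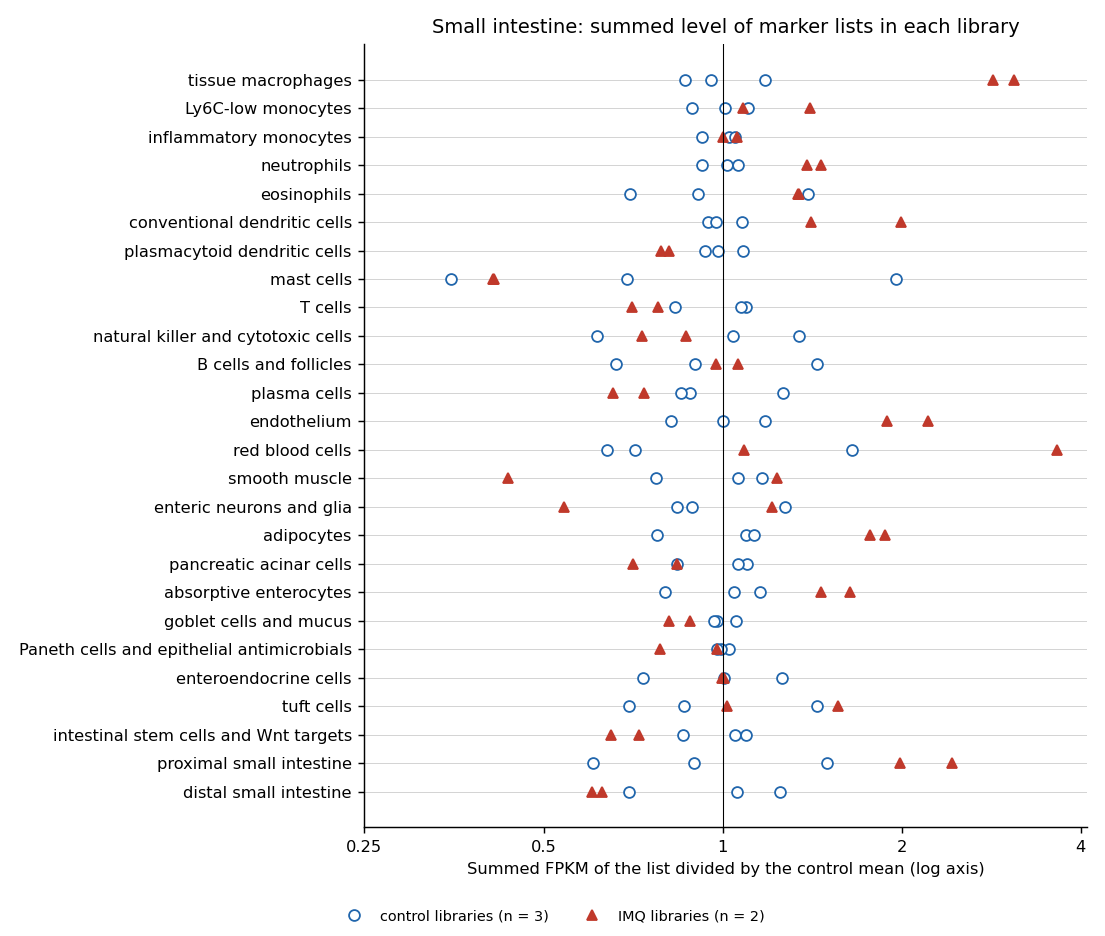
Summed FPKM of each cell type marker list in the 5 libraries, divided by the mean of the 3 controls and drawn on a log axis, with open circles for the controls and triangles for IMQ. For tissue macrophages the sums in FPKM are 290 to 394 in the controls and 1035 and 955 in IMQ, while the T cell sums are 51.0 to 67.2 in the controls and 47.7 and 43.2 in IMQ. *C1qc* alone gives 33.4 to 49.9 of the macrophage sums in the controls and 257 and 228 in IMQ.

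Epithelial markers had few called members, beside 2.77% of all genes tested called higher and 0.17% called lower. Of 17 tested enterocyte markers 1 was called higher, *Slc2a5*, the fructose transporter, with 5888, 6405 and 7825 normalized counts in the controls and 13923 and 12782 in IMQ (0.99, SE 0.16, adjusted p = 0.0203). It was not called without control 8, IMQ 10 or IMQ 11 (0.0794, 0.152 and 0.1). *Apoa4*, the most abundant marker, spanned 97863 to 357422 in the controls and was 632956 and 1054760 in IMQ, groups that do not overlap (1.83, adjusted p = 0.222). Of 9 goblet cell genes 1 was called lower: *Agr2*, the disulfide isomerase needed to fold mucin, had 15058, 15916 and 15986 against 8245 and 8276 (-0.92, SE 0.14, adjusted p = 0.0131), and was not called without IMQ 10 or IMQ 11 (0.15 and 0.145). None of 11 Paneth cell and antimicrobial, 13 enteroendocrine or 10 stem cell genes was called, with medians of -0.42, 0.05 and -0.36. Both IMQ libraries lay below all controls for 7 of the 11 Paneth cell, 8 of the 10 stem cell and 7 of the 9 goblet cell genes, against 13.9% of all genes tested, and the log2 fold change was negative for all 10 stem cell genes. The stem cell gene *Olfm4* was at 54260, 46027 and 43135 against 33315 and 31482 (-0.56, adjusted p = 0.263). The 1 call among 9 tuft cell genes was *Gfi1b*, at 17.4, 7.06 and 5.54 against 87.1 and 213 (3.91, adjusted p = 0.0134), a gene that blood cell precursors also express. Without control 8, control 9 or IMQ 11 its adjusted p was 0.0529, 0.0675 and 0.0705.

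The position of the sampled segment along the gut was not given. Genes of the proximal small intestine summed to 1796 to 4451 FPKM in the controls and to 5897 and 7205 in IMQ, and genes of the distal small intestine to 538 to 966 in the controls and to 485 and 467 in IMQ. Neither list had a called member (0 of 9 and 0 of 8 tested). The proximal gene *Fabp1* ran from 35767 to 114520 normalized counts in the controls and was 152780 and 207403 in IMQ (1.31, adjusted p = 0.276). The distal gene *Clec2h* was at 32636, 73240 and 58008 against 32070 and 33245 (-0.74, adjusted p = 0.446). The sums of both lists separated the groups, in opposite directions. *Fabp1* alone held 1282 to 3809 FPKM of the proximal sums in the controls and 5207 and 6546 in IMQ. Of the 9 proximal genes, 6 had a positive and 3 a negative log2 fold change (median 0.17). All 8 distal genes had a negative one (median -0.70). The part of segment position in the epithelial results was not tested.

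Most genes of cholesterol synthesis had small negative log2 fold changes. Of 23 tested, 3 were called lower and 0 higher, with a median log2 fold change of -0.42. Only *Insig1* had a positive log2 fold change, and 14 had both IMQ libraries below all controls. Over all genes tested, 2.77% were called higher, 0.17% were called lower and 13.9% had both IMQ libraries below all controls. The called genes were *Sqle* (squalene epoxidase), at 2987, 3058 and 3324 normalized counts against 1663 and 1970 (-0.78, SE 0.13, adjusted p = 0.0247), *Idi1* (isopentenyl diphosphate isomerase), at 3225, 3580 and 3456 against 2000 and 2222 (-0.70, SE 0.12, adjusted p = 0.0292), and *Cyp51* (lanosterol demethylase), at 3499, 3681 and 3611 against 2011 and 2448 (-0.69, SE 0.13, adjusted p = 0.0411). The controls agreed closely in all 3. Neither *Sqle* nor *Idi1* kept its call when control 8, control 9 or either IMQ library was left out (adjusted p = 0.0676 to 0.222 and 0.0966 to 0.259). Of 21 xenobiotic metabolism genes, 1 was called higher (median 0.42): *Cyp2j6*, at 9116, 6577 and 5738 against 14394 and 17136 (1.14, adjusted p = 0.0384), a call lost when any library except control 7 was left out (adjusted p = 0.108 to 0.24).

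Structural and housekeeping lists were without calls. None was called of 18 tight junction genes (median -0.20), 15 proliferation genes (-0.15), 20 ribosome biogenesis genes (-0.14), 9 immediate early and heat shock genes (0.14), 8 smooth muscle genes (-0.21) and 6 genes of enteric neurons and glia (-0.50). *Mki67*, expressed in cycling cells, was at 8988, 9483 and 12668 normalized counts in the controls and 10426 and 10005 in IMQ (-0.02, adjusted p = 0.984). Of 6 endothelial genes 1 was called, *Pecam1* (CD31), which leukocytes also carry, at 2162, 1797 and 1725 against 7112 and 6469 (1.84, SE 0.14, adjusted p = 6.68e-04). *Cdh5* (0.62) and *Vwf* (0.68), which are absent from leukocytes, were not called.

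The list of transcripts that were also assayed by PCR held 10 tested genes. The 1 called was *Il1b*, given above. *Tnf* had 55.3, 43.4 and 65.6 normalized counts in the controls and 115 and 298 in IMQ, groups that do not overlap (1.91, adjusted p = 0.0772), and was called without IMQ 10 (2.45, adjusted p = 0.0287). The barrier genes *Tjp1*, *Cldn1*, *Cldn4* and *Ocln* had log2 fold changes of -0.24, 0.21, 0.48 and -0.43, none of them called. *Muc2*, the main mucin, was at 37957, 56271 and 36121 against 32858 and 22249 (-0.66, adjusted p = 0.405). *Cldn4*, at 808, 932 and 4361 against 2732 and 2931, was called higher without control 9 (1.70, adjusted p = 0.0063). The eosinophil genes *Ccr3* and *Prg2* were at -0.30 and 0.92 (adjusted p = 0.849 and 0.468). *Il6*, *S100a8*, *Il23a*, *Il17a* and *Il22* had 0 to 11 counts in each library, with a 0 in at least 1, and were not tested.

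Requiring a count in every library left out genes that were silent in controls. There were 68 genes with at least 20 counts in both IMQ libraries and a 0 in some control, 12 of them 0 in all controls. In a fit without the filter 26 of the 68 had an adjusted p under 0.05, beside 605 of all 26876 genes in that fit. The 68 were picked by high counts in IMQ and a 0 in a control, so their p-values are no independent test. *Fcrl5* (chr3:87435777-87500678), an Fc receptor-like gene of B cells, was the largest, with 0, 0 and 5 counts in the controls and 5293 and 3017 in IMQ (adjusted p without the filter 6.58e-05). *Cd5l*, an apoptosis inhibitor secreted by macrophages, had 0 counts in all controls and 77 and 42 in IMQ, at least 19.3-fold higher against a floor of 3 counts per library. *Ankdd1a* had 0 against 162 and 166, at least 54.9-fold higher, and *Spocd1* had 0 against 156 and 102, at least 42.2-fold higher. The anti-inflammatory cytokine gene *Il10* had 0, 0 and 13 counts against 99 and 99 (adjusted p without the filter 0.0609). In the other direction 17 genes with at least 20 counts in every control were left out. The fit without the filter called 1 of the 17, *Gm19434*, with 42, 27 and 30 counts in the controls and 0 in both IMQ libraries. A 0 in IMQ 11 alone was found for 13 of them; *Defa22*, an α-defensin of Paneth cells, had 2002, 3406 and 2770 counts in the controls, 2343 in IMQ 10 and 0 in IMQ 11 (adjusted p without the filter 0.79). These genes were chosen after their counts were seen.

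The effect of IMQ was compared with that in skin, the treated organ, as an interaction in a single edgeR fit. It used every library, skin and intestine, and 18108 genes that none of the 11 lacked. The fit treated the 11 libraries as independent. Whether a skin and an intestine library came from the same mouse is not given. A difference between the tissues was called for 2.55% of these genes. Of the named and listed genes, 486 could be compared, and 54 of them had a called difference; since many were chosen with their change in small intestine known, the count is a description. *Clec4a3* had a log2 fold change of 2.17 in skin and was 3.12 higher in small intestine (adjusted p = 6.00e-04). *Sirpa* was at 0.88 in skin (difference 1.64, adjusted p = 9.52e-04) and *Cd68* at 0.55 (difference 1.97, adjusted p = 0.00667). *Fcgr4* had a log2 fold change of 3.39 in skin, and its difference was not called (1.94, adjusted p = 0.12), nor was that of *Il1b* (2.81 in skin, difference 0.34, adjusted p = 0.814). Of the 9 neutrophil markers compared, 3 had a called difference (*S100a9*, *Mmp9* and *Retnlg*). *S100a9* had a log2 fold change of 9.43 in skin (difference -7.22, adjusted p = 9.13e-04), while *Csf3r* had one of 3.01, and its difference was not called (0.18, adjusted p = 0.818). The chemokine gene *Cxcl1* was at 4.10 in skin (difference -2.21, adjusted p = 0.027). *Mmp13*, *Mmp9* and *Gsdmc4* were called lower in small intestine and had log2 fold changes of 3.38, 1.69 and 2.79 in skin. *Cd300e*, *Hs3st2*, *Gp2*, *Mbl2*, *Apol7c*, *Apol10a* and *Apol11b* had a 0 in some skin library and were not compared.

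**Figure D5:**
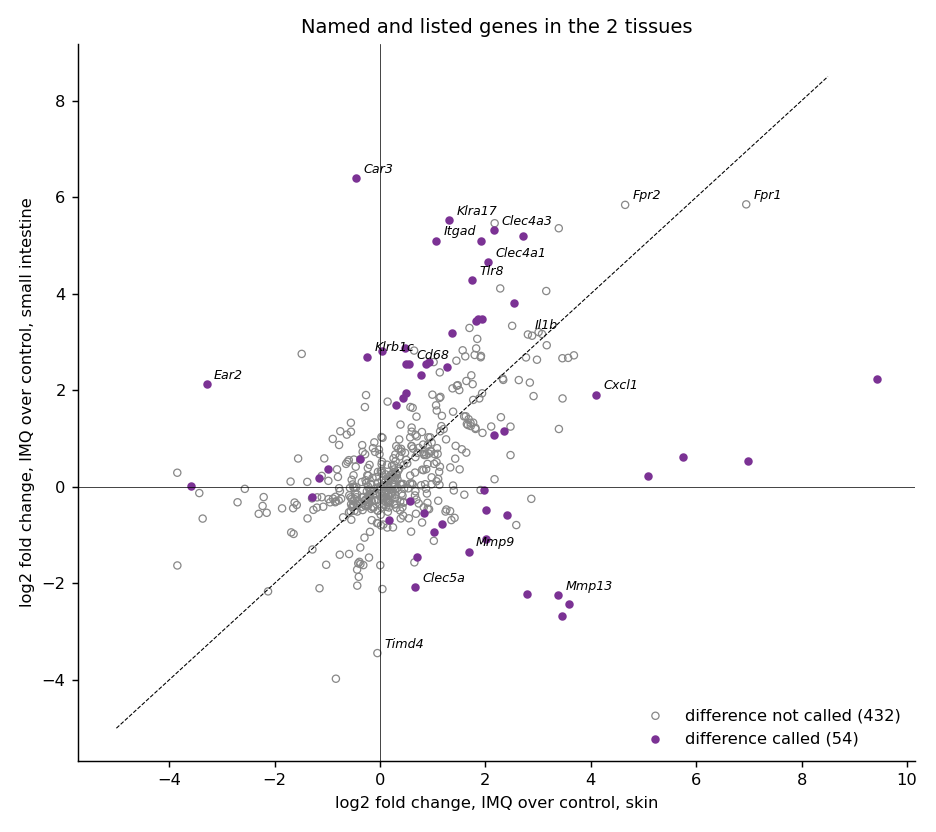
Log2 fold change (IMQ over control) in skin on the x axis and in small intestine on the y axis for the 486 named and listed genes tested in both tissues, with filled points for the 54 genes whose difference between the tissues was called, open points for the other 432, and a dashed line of equal change. *Clec4a3* lies above the line at 2.17 in skin, and *Mmp13* lies at the lower right with a skin value of 3.38.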

How the data were processed

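RNA from small intestine of BALB/c mice was sequenced in 3 control and 2 IMQ libraries. According to the labels and the methods of the study, the authors trimmed adapters and low-quality sequence (Trimmomatic), aligned reads with HISAT2 2.1.0 to mm10 and assembled with StringTie 2.1.3b (bcl2fastq 2.20.0 is also named in the submitters' processing notes). The authors deposited 1 table with read counts, FPKM and TPM for each gene and library; the TPM values were not used. The tool behind the deposited counts, the strand setting and the handling of reads that map to several genes are not given in the sources used here, so paralogs and overlapping or antisense genes may share reads. All sample columns were mapped to a library (0 unmapped).

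Deposited counts were tested with edgeR 4.0.16 (R 4.3.3): relative log expression normalization, a count of 1 or more required in all 5 libraries, quasi-likelihood F test, Benjamini-Hochberg adjustment, calls at an adjusted p under 0.05. On simulated data with 200 changed genes of 19581 for this comparison, 94% of changes of 2 and 49% of changes of 1 on the log2 scale were called, with 4 false calls. The changed genes all had a mean count of at least 50. Each gene was given the spread of the trend at its level, with no spread of its own. Recovery at lower counts, and false calls from genes more variable than the trend, were therefore not measured. The libraries held 48035631 to 58526384 counts; floors cover counting error only. FPKM deposited by the authors, which account for gene length, were summed over marker lists. The difference between tissues was an interaction in 1 edgeR fit of all 11 libraries. limma 3.58.1 and DESeq2 1.42.0 served as alternatives, with other normalizations, filters and left-out libraries. Gene positions and promoters were taken from RefSeq (GRCm38.p6, the build mm10). Python 3.11.15 and matplotlib 3.10.9 drew the figures.

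The members and the 49 gene lists were chosen with earlier results of these data known. Genes were named by rule: the 12 largest changes in each direction with normalized counts averaging 50 or more and groups that do not overlap, the called members of each list with the smallest p and its most abundant member, and the genes assayed by PCR; other genes named beside them, among them further list members and the genes left out by the filter, were chosen after their values were seen. A few genes that the rule names are not reported here.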

Additional observations from a re-analysis of the deposited data

Results flagged for a closer look

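Of the 24 genes with the largest changes, 17 could be compared between the tissues. For 9 of them the effect of IMQ differed between small intestine and skin by the interaction test over all 11 libraries (edgeR adjusted p under 0.05 over 18108 genes, which held for 2.55% of them). The difference is given as small intestine minus skin on the log2 scale. It was positive for *Car3* at 6.83 (adjusted p = 4.87e-04; -0.45 in skin), *Klra17* at 4.19 (0.0323), *Itgad* at 4.01 (0.00598), *9630028I04Rik* at 3.17 (0.0269), *Clec4a3* at 3.12 (6.00e-04) and *Clec4b1* at 2.46 (0.00829). It was negative for *Clec5a* at -2.76 (adjusted p = 0.00371; 0.67 in skin), *Gsdmc4* at -5.03 (0.00978) and *Mmp13* at -5.65 (0.00927). These genes were selected for their change in small intestine, so that their differences are not independent of that choice.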

How the results depend on the processing

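No named gene with a call, under the main or another setting, changed direction in any alternative run: of the values recomputed for named genes, 1592 kept their side of the threshold, 137 lost a call and 6 gained one. No paired analysis was possible because the control and IMQ groups share no replicate numbers. The main counts were 588 called (554 higher and 34 lower), 104 higher and 12 lower members of the lists, and 462 differences between tissues. TMM (589), upper-quartile normalization (534), limma-voom (637), filterByExpr (629), no filter (605), and a fit of all 11 libraries (662) stayed within 1.5 times of 588, as did limma on log2(FPKM + 0.01) with 440 and on log2(FPKM + 1) with 404. DESeq2 called 1190 genes, 994 higher and 196 lower, so that 83.5% of its calls were higher against 94.2%; it called 35 list members lower and 1217 differences between tissues. It called 584 of the 588. limma on log2(FPKM + 1) gave 18 lower genes and 6 lower list members, a log2 fold change of at least 1 gave 21 and 7, and no filter gave 301 differences between tissues; the causes were not tested. Leaving out each library in turn gave 294 to 801 called genes (282 to 687 higher, 5 to 114 lower), 73 to 116 higher and 1 to 23 lower list members, and 144 to 1072 differences between tissues, lowest without IMQ 10 and highest without skin control 2. By library the called genes were 801 without control 7, 397 without control 8, 378 without control 9, 294 without IMQ 10 and 334 without IMQ 11, and 538, 383, 340, 276 and 321 of them were among the 588. With 1 IMQ library left, it was assumed to vary like the controls. Unadjusted p was under 0.05 for 2452 genes. Genes near the count minimum (473 had a lowest count of exactly 1) are limited by depth.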

Other observations

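The following groups were put together after their values were seen, and are given as counts and values only, beside the 2.77% of all genes called higher and 0.17% lower. Of 25 tested genes of fatty acid oxidation and ketogenesis, 11 were called higher and 0 lower, with a median log2 fold change of 0.73. *Pdk4*, which restrains glucose oxidation, had 1803, 989 and 802 normalized counts in the controls and 3604 and 15548 in IMQ (3.0, edgeR adjusted p = 0.046). *Acot1*, *Acadl* and *Plin2* were called at 2.36, 1.49 and 1.07, and *Cyp4a10* was not at 3.62 (adjusted p = 0.177). In *Pdk4* IMQ 11 was well above IMQ 10, while both exceeded all controls. Food intake and time of sampling are not given.

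Of 11 tested immunoglobulin constant region genes, 3 were called higher. *Ighm*, the IgM heavy chain, had 1324, 1248 and 2391 normalized counts in the controls and 7706 and 6978 in IMQ (2.15, edgeR adjusted p = 0.00711). *Ighg2c*, an IgG2 heavy chain of the class that the Fcgr4 receptor binds, had 49.9, 34.3 and 103 against 765 and 814 (3.65, adjusted p = 0.00398). *Iglc1* had a log2 fold change of 0.72 (adjusted p = 0.0346). *Igha*, the IgA heavy chain that dominates the gut, was not called (-0.36, adjusted p = 0.829), nor was *Ighd* (-1.75, adjusted p = 0.663). BALB/c mice are known to carry an IgG2a allele at this locus, so reads given to *Ighg2c* may come from it.

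Of 3 tested genes of the IL-12 family, both chains of IL-27 were called higher. *Il27* had 19.5, 6.05 and 12.9 normalized counts in the controls and 126 and 131 in IMQ (3.32, edgeR adjusted p = 0.00767), and *Ebi3* had 133, 72.6 and 102 against 869 and 693 (2.93, adjusted p = 0.00171).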
